A study of Rattus norvegicus with 18 samples.

Results

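The CpGs described here are the autosomal CpGs with the deepest read coverage in reduced representation bisulfite sequencing (RRBS) of the rat striatum. Cytosines with at least 10 reads were kept, the strands were merged, and a CpG was taken when it was present in all 18 striata with a median merged coverage of at least 150 reads. A stretch of ribosomal RNA genes on chromosome 1, with 104 CpGs of that depth, was left out. This gave 608 CpGs of the 292179 autosomal CpGs outside that stretch that were present in all 18 striata, or 0.208%, out of 294959 CpGs on all chromosomes and contigs. All positions are of the rn6 assembly. The working name of the set was high-copy CpGs, but the rule used read depth and copy number was not measured, so they are called high-depth CpGs.

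Both striata of 9 male Wistar rats had been sequenced. Every rat, the untreated ones included, received 6-hydroxydopamine (6-OHDA), a toxin of dopaminergic neurons, into the left medial forebrain bundle at postnatal day 21, so the control striatum is the uninjected side of a lesioned animal. From postnatal day 35 to 49, and once more at day 53, 3 rats received saline (UNT), 3 received L-DOPA with benserazide, and 3 received L-DOPA with benserazide and Riluzole (L-DOPA + R), an anti-glutamatergic drug. The striatum is a mixed tissue, and a difference in methylation cannot be told apart from a difference in the shares of its cell types.

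In RRBS the DNA is cut at CCGG sites by MspI, and only fragments of a chosen size are sequenced, so depth varies between fragments. Genomes also hold sequences in many copies, in tandem or dispersed, and where an assembly shows several copies as a single one, the reads of all copies pile up at that place. The methylation level read there is then an average over copies as well as over cells. CpG methylation in repeated sequence is generally high in mammalian brain, while CpGs of active ribosomal and promoter sequence are mostly unmethylated. A sequence or gene annotation of rn6 was not used here, so the CpGs are given by position, without the genes or repeats around them.

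The 18 striata had between 18471279 and 49113957 calls, and the median coverage of the autosomal CpGs was between 23 and 62 reads per striatum. The high-depth CpGs had a median coverage between 151.5 and 411.5 reads per striatum and held between 1.93% and 2.47% of the merged reads. UNT libraries had between 30288745 and 49113957 calls, L-DOPA libraries between 18471279 and 30764504 and L-DOPA + R libraries between 19383285 and 25846139, so UNT and L-DOPA overlapped slightly. UNT differed from the drug groups at cytosines near the end of a 50-base read, that is, 46 to 50 bases after a called cytosine on that strand. Other called cytosines could lie between them. Leaving these out lowered the number of CpGs called between L-DOPA and UNT over the whole table from 2300 to 468. Of the high-depth CpGs, 91 (15%) had such a cytosine, and 13.9% of all autosomal CpGs did.

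Depth was what chose these CpGs and is given as a description. The median of their median coverage was 217.75 reads, where all autosomal CpGs had 33, and the largest was 8396. There were 407 CpGs with 150 to 300 reads, 171 with 300 to 1000 and 30 with over 1000. At the limit, chr1:94759239 (95.2% methylated) and chr1:148440797 (0.474%) were just inside with 150 reads, and chr1:54419095 (93.7%) and chr12:36623288 (0.0553%) were just outside with 149.5. With CpGs less than 1000 bases apart joined, the 608 CpGs formed 240 stretches, of which 124 held a single CpG, 87 held 2 to 4, and 29 held 5 or more with 262 CpGs among them. Another stretch lay within 1 Mb of 94 stretches. Chromosome 19 had 5.23 high-depth CpGs per 1000 CpGs measured, chromosome 9 had 4.67 and chromosome 4 had 4.07, while chromosome 8 had 0.631. A single stretch held 38 of the 52 CpGs of chromosome 19, which had 11 stretches, where chromosome 13 had 17 and chromosome 7 had 26. The CpGs of a stretch share fragments and are not independent of each other.

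The high-depth CpGs were less methylated than all autosomal CpGs and lay more often at the lower end of the scale. The median of their mean methylation over the 18 striata was 27.4%, and it was 55.1% for all autosomal CpGs. Of the 608, 290 (47.7%) were under 20%, 112 (18.4%) were between 20 and 80%, and 206 (33.9%) were above 80%. For all autosomal CpGs these shares were 39.1%, 24.1% and 36.8%. Without the CpGs that have a cytosine 46 to 50 bases past another, the median was 36.6%. The median over all 608 CpGs ranged from 20.7% to 30.2% between the striata. Both strands were covered in every striatum at 153 CpGs (25.2%), against 5.03% of all autosomal CpGs, which is a share that depth itself sets.

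**Figure D1:**
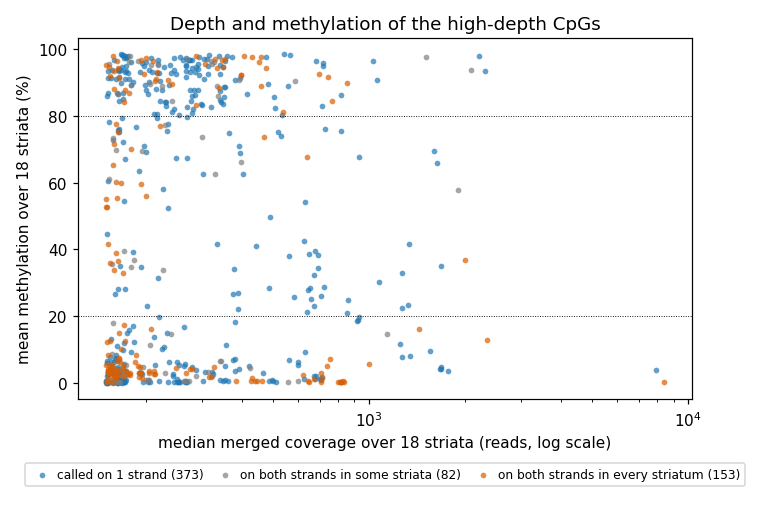
Mean methylation over the 18 striata (%) against the median merged coverage (reads, log scale) for the 608 high-depth CpGs, coloured by the strands on which they were called. The dotted lines are at 20 and 80%: 290 CpGs lie under the lower line, 206 above the upper one and 112 between them.

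The deepest stretch was chr8:181310-181337, with 2 CpGs. At chr8:181310 the coverage was between 4669 and 17368 reads per striatum, 297 times the median of a striatum, and 0.355% of the reads were methylated. Unmethylated spike-in DNA read as C at between 0.302% and 0.928% in the 18 libraries, so this CpG cannot be told from a fully unmethylated one. Its neighbour chr8:181337 had a coverage of 7928 and a methylation of 3.83%.

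Next in depth were chr19:56338944 with 2336.5 reads (12.9% methylated), chr1:55736923 with 2302 reads (93.6%), chr2:159032238 with 2213.5 reads (97.9%) and chr20:46083801 with 2094.5 reads (93.7%). After them came chr4:77453008 with 1762 reads (3.57%), chr6:30631529 with 1341 reads (8.10%) and chr7:12109767 with 1077 reads (30.2%). Depth thus went with either extreme of methylation and with levels between them. Over the 9 rats, chr6:30631529 ranged from 1.14% in L-DOPA + R rat 2 to 19.5% in L-DOPA rat 2, and chr7:12109767 from 18.6% to 40.6%, while the 3 most methylated CpGs of this group varied by at most 3.21 points.

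The longest stretch was chr19:56337682-56339150, with 38 high-depth CpGs in 1469 bases. Methylation along it went from 9.22% to 92.6%, and the levels did not change evenly along it. At chr19:56338062 it was between 89.6% and 95.6% in the 18 striata, and at chr19:56338980, it was between 6.77% and 16.8%. Other long stretches were at 1 end of the scale. The 25 CpGs of chr4:77448223-77448418 were between 0.210% and 4.55%, and the 13 of chr2:52832092-52832504 between 0.788% and 8.31%. The 13 of chr9:12093948-12094226 were between 0.348% and 14.5%, while the 18 of chr2:193572221-193573149 had a median of 94.5%, with 62.6% at chr2:193572261 and up to 97.7% elsewhere. Over the 116 stretches with at least 2 CpGs, the median range of methylation within a stretch was 6.53 points, with 52 under 5 points and 8 over 50 points.

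Some stretches repeated the spacing of another. Of the 68 stretches with 3 or more CpGs, 2 pairs had identical distances between all their CpGs. The stretches chr2:52998607-52998688 and chr2:53005555-53005636 each had 5 CpGs in 82 bases and were both low, with median methylation of 6.74% and 2.94%. The other pair, chr7:117733767-117733803 and chr16:22020294-22020330, had 3 CpGs in 37 bases and opposite levels of 0.171% and 88.5%. Without the sequence of rn6 it was not tested whether either pair shares sequence.

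The 2 striata of a rat, paired by replicate number, were closer to each other than to the striata of other rats. The mean absolute difference in methylation between the 2 striata of a rat was 2.20 points over the 608 CpGs. It was 3.06 points between different rats of the same treatment and 3.35 points between treatments. For the 112 CpGs between 20 and 80%, these differences were 4.07, 7.42 and 8.35 points. The deviations of the 2 striata of a rat from their group means had a mean Pearson's r across the 608 CpGs of 0.598 (0.396 to 0.739 over the 9 rats), which is a description, since CpGs of a stretch share fragments and both striata share an animal.

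This was larger than at CpGs of lower depth. For the 2869 autosomal CpGs with a median coverage from 100 to 150 reads, the mean r was 0.126, and the differences were 3.52 points within a rat and 3.69 points between rats of a treatment. With every CpG thinned to at most 40 reads per striatum, the mean r was 0.311 at the high-depth CpGs and 0.0702 at the CpGs of 100 to 150 reads. With 1 CpG per stretch it was 0.455 with all reads and 0.193 after thinning. It was 0.412 without the 13 CpGs of 4 stretches in a region of chromosome 14, where the rats differed most, and 0.530 without the 10 stretches whose depth differed over 4-fold between rats. Which libraries were pooled for bisulfite treatment is not given in the sources used here, and a part of shared handling of the 2 striata of a rat in these values was not tested.

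When only the deepest CpG of each stretch is compared, the 2 widest ranges over rats were on chromosome 14. At chr14:46565391, UNT rats had 19.6%, 4.07% and 54.2% methylation, L-DOPA rats 28.7%, 2.89% and 39.97%, and L-DOPA + R rats 31.1%, 21.1% and 54.5%. The ranges of the 3 treatments overlapped in part, and no L-DOPA + R rat was as low as UNT rat 2 or L-DOPA rat 2. The control and the lesioned striatum of a rat stayed close, with 17.2% and 21.5% in UNT rat 1, 2.85% and 5.19% in UNT rat 2, and 53.4% and 55.3% in UNT rat 3. Its depth varied as well. UNT rat 3 had 2746 and 1959 reads in its control and lesioned striatum, while UNT rat 2 had 527 and 578.

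At chr14:46633425, in a neighbouring stretch, depth was low in 2 of the 9 rats. UNT rat 3 had 38 and 20 reads and L-DOPA rat 3 had 13 and 10 reads, in the control and the lesioned striatum. The other 7 rats had between 325 and 3659 reads per striatum. Scaled to the median of the striatum, the largest mean of a rat was 160 times the smallest. Methylation went from 1.29% in L-DOPA rat 2 to 57.4% in L-DOPA + R rat 3, and the 2 rats with few reads had 15.5% and 13.04% on 58 and 23 reads. These were the same rats that had the most reads of their treatment at chr14:46565391.

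Among the deepest CpGs of each stretch, chr6:30496897 had the next widest range, and it did not follow treatment alone. UNT rats had 42.6%, 40.1% and 63.4%, L-DOPA rats 81.7%, 65.0% and 79.6%, and L-DOPA + R rats 42.9%, 46.67% and 82.1%. This CpG was a DMS between L-DOPA and UNT (27.3 points, q = 0.000558), whose rats did not overlap, while L-DOPA + R rat 3 lay with the L-DOPA rats and the other 2 with the UNT rats. At the neighbouring chr6:30496908 the 18 striata were between 38.0% and 52.9%.

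**Figure D2:**
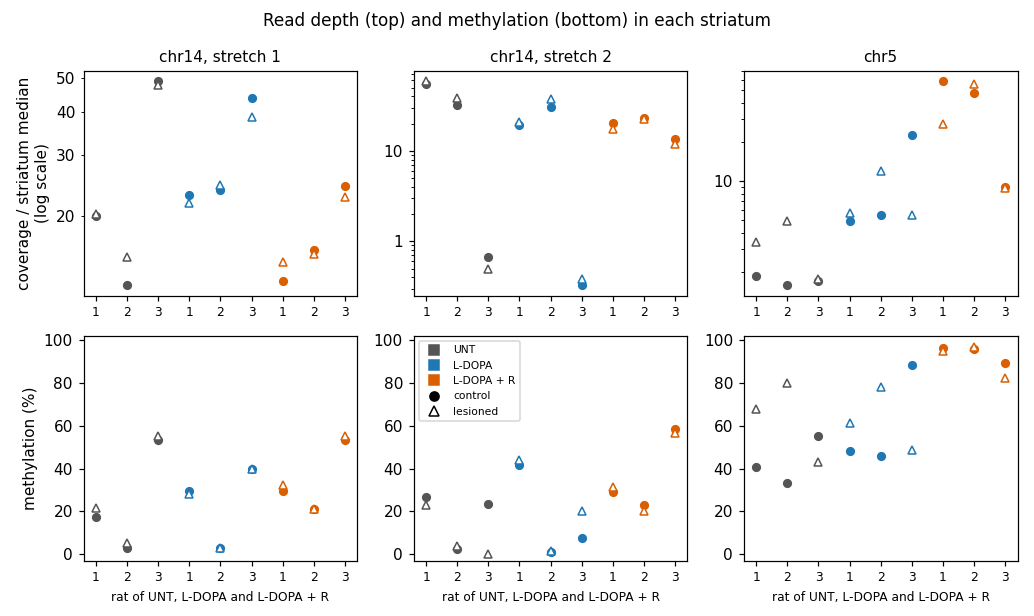
Merged coverage divided by the median of the striatum (top, log scale) and methylation (%, bottom) in each of the 18 striata at chr14:46565391 (stretch 1), chr14:46633425 (stretch 2) and chr5:53890540, with the 9 rats on the horizontal axis, circles for control and triangles for lesioned striata. The 2 symbols of a rat lie close together at stretch 1, and at stretch 2 except in UNT rat 3 and L-DOPA rat 3, which had 10 to 38 reads there, while on chromosome 5 the striata of UNT and L-DOPA rats differ and methylation is above 82% in all L-DOPA + R striata.

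Depth also differed between rats and treatments in other stretches. Scaled depth differed on average 1.14-fold between the 2 striata of a rat, 1.23-fold between rats of a treatment and 1.38-fold between treatments. In 24 of the 240 stretches the deepest CpG differed over 2-fold between the medians of the treatments, and the median over all stretches was 1.25-fold. The 6 UNT striata did not overlap the 12 drug striata in scaled depth at 65 CpGs (10.7%), 36 of them with UNT above and 29 with UNT below. These 65 CpGs lay in 29 stretches. Over all autosomal CpGs this held for 1.77%, with 0.571% above and 1.2% below. At CpGs of 20 to 50 reads the 2 striata of a rat differed 1.32-fold, and this larger spread also lowers such a share. L-DOPA striata lay above all others at 17 CpGs (0.165% of all) and below at 22 (0.197%), and L-DOPA + R striata above at 20 (0.333%) and below at 20 (0.207%). The groups of libraries differed in depth and in the behaviour of read ends, and these cannot be told apart from treatment. Depth chose the CpGs, so nothing is tested here.

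The differences named here were chosen after their values were seen. The largest, at the deepest CpG of a stretch, was 20.4-fold between the treatment medians of scaled depth, at chr5:53890535. Unscaled, UNT striata had a median coverage of 97.5 reads there, L-DOPA striata of 193.5 and L-DOPA + R striata of 1070.5. At chr5:19156656, with 12.01-fold in scaled depth, unscaled coverage was between 19 and 34 reads in the 6 L-DOPA striata, between 220 and 435 in UNT and between 196 and 384 in L-DOPA + R. Its methylation was between 88.7% and 97.1% in the 9 rats. At chr9:12388390, UNT striata had between 733 and 1935 reads, L-DOPA striata between 119 and 383 and L-DOPA + R striata between 251 and 379. At chr12:1510413, scaled depth was high in all UNT rats (24.8, 37.8 and 24.9 times the median of the striatum), in L-DOPA rat 2 (27.7) and in L-DOPA + R rat 3 (50.8), and between 8.03 and 10.46 in the other 4 rats. Here the split ran between rats of the same treatment.

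Treatments were then compared by logistic regression per CpG over the whole table, and CpGs with a q under 0.01 were called differentially methylated sites (DMS). Methylation was not used to choose the CpGs, but their depth lets smaller differences pass. Between L-DOPA and UNT, 18 of the 608 high-depth CpGs were DMS (2.96%, where 0.351% of all CpGs tested were called), 9 with lower (0.269% of all) and 9 with higher methylation in L-DOPA (0.0828%). They lay in 14 stretches. Rats of the groups did not overlap at 14 of the 18, which is a description, since a call itself favours such separation. The other 4 were all in the stretch chr4:77407142-77407177, where they were higher by 1.23 to 3.11 points at mean levels of 1.23% to 3.04% in L-DOPA and 0.232% to 0.625% in UNT. Between L-DOPA + R and UNT there were 23 DMS (3.78% against 0.445% of all), 16 lower (0.361%) and 7 higher (0.0839%), in 17 stretches. Both comparisons use the same UNT rats. Between L-DOPA + R and L-DOPA there were 3 DMS (0.493% against 0.0477%), all higher in L-DOPA + R (0.0201%). The median difference over all 608 CpGs was -0.224 points in L-DOPA against UNT and -0.389 points in L-DOPA + R against UNT, where over all CpGs tested it was -0.00614 and -0.265 points. For L-DOPA + R against L-DOPA it was -0.203 points, with 351 CpGs lower and 256 higher, and 0 over all CpGs tested, so the 3 calls ran against the median. An unadjusted p under 0.05 was found at 97, 126 and 81 of the 608 CpGs in the 3 comparisons, where 7.37%, 9.52% and 7.09% of all CpGs tested had one.

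The share called rose with depth in both comparisons with UNT. For L-DOPA it was 0.195% of the autosomal CpGs with a median coverage of 10 to 20 reads, 0.451% at 20 to 50, 0.680% at 50 to 100 and 0.941% at 100 to 150, before the 2.96% of the high-depth CpGs. After thinning to 40 reads, 5 of the high-depth CpGs were called (0.822%), 0.593% of those at 100 to 150 reads, and 0.315% of all CpGs tested. For L-DOPA + R, 6 were called after thinning (0.987%), where 0.802% of the CpGs at 100 to 150 reads and 0.387% of all were. For L-DOPA + R against L-DOPA, 2 were called after thinning (0.0399% of all), 1 lower and 1 higher, and neither was among the 3 called with all reads. The median size of a called difference fell in L-DOPA from 46.2 points at 10 to 20 reads to 9.34 points at the high-depth CpGs, and 6 of the 18 were under 5 points. The deepest CpG called was chr8:181337, where UNT rats had 4.03% ± 0.0534 and L-DOPA + R rats 3.50% ± 0.0738 (SD over rats), a difference of -0.532 points (q = 0.00303). Unmethylated spike-in DNA read as C at 0.477% to 0.928% in UNT and at 0.429% to 0.563% in L-DOPA + R libraries. The part of conversion in this small difference was not tested.

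**Figure D3:**
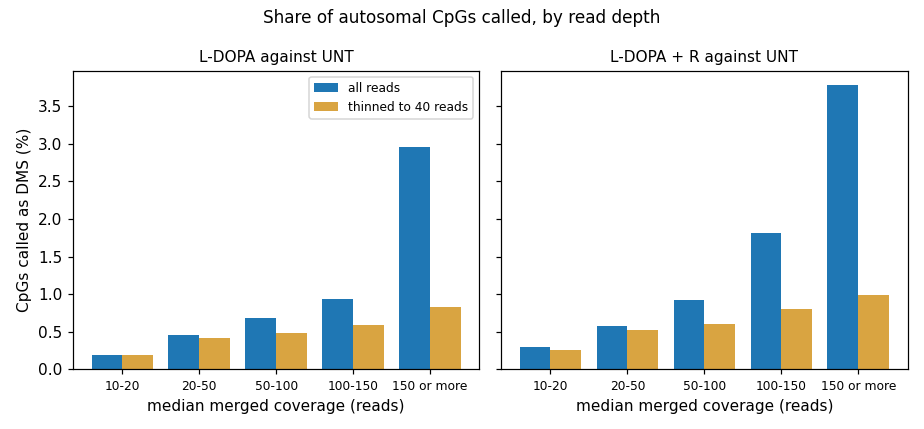
Share of autosomal CpGs called as DMS (%) against UNT in bands of median merged coverage (reads), with all reads and after thinning every CpG to at most 40 reads per striatum. With all reads the bars rise to 2.96% and 3.78% in the deepest band, and after thinning to 0.822% and 0.987%.

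The count depended on how the spread between striata was treated. With the more cautious F test, 4, 4 and 0 high-depth CpGs were called in the 3 comparisons in the order above (0.0622%, 0.0578% and 0.000352% of all). Called in both comparisons with UNT were chr2:193572261, chr3:92145502 and chr17:57866142, each with a cytosine 46 to 50 bases past another. The remaining call was chr9:11729896 in L-DOPA and chr4:102985686 in L-DOPA + R. The calls at chr6:30496897 and chr8:181337 were not kept. With this test, 75, 100 and 57 had an unadjusted p under 0.05 (12.3%, 16.4% and 9.38%, where 4.26%, 5.86% and 3.93% of all CpGs had). With the reads of the 2 striata of a rat added up and the rat as the unit, 10, 18 and 2 were called (0.342%, 0.491% and 0.0335% of all). The 10 in L-DOPA were 7 lower and 3 higher, so the even split of the 18 was not kept. Without the cytosines 46 to 50 bases past another, 11, 12 and 3 were called (0.0776%, 0.132% and 0.0437% of all). Of the 18 and 23 DMS against UNT, only 3 and 4 had such a cytosine. The q values of the others changed as well, since q is adjusted over all CpGs tested. Without UNT rat 1, the count for L-DOPA was 9 (0.306% of all), with 7 lower and 2 higher. Without L-DOPA + R rat 2, the counts for L-DOPA + R were 12 against UNT (0.430%) and 1 against L-DOPA (0.0405%). Without L-DOPA + R rat 3 the last was 5 (0.0941%), with 3 lower and 2 higher, so the single direction of the 3 calls was not kept. Without any 1 L-DOPA rat, the count between the drug groups was 4 (0.0464% to 0.0650%), with 1 lower and 3 higher.

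Of the DMS between L-DOPA and UNT, chr9:11729896 was the one with the smallest p among those without a cytosine at 46 to 50 bases. UNT rats had 80.4%, 83.3% and 82.5%, and L-DOPA rats 94.0%, 93.6% and 95.1%. The difference was 12.4 points (q = 3.92e-15), the rats of the groups did not overlap, and L-DOPA + R rats, with 93.0%, 95.7% and 89.3%, were 11.1 points above UNT (q = 2.50e-06). The F test kept the call in L-DOPA (q = 0.00918) and not in L-DOPA + R (q = 0.0930). The neighbouring chr9:11729877 was between 77.5% and 92.5% in the 18 striata.

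At chr1:54442099, methylation was 75.1%, 76.3% and 70.8% in UNT rats and 60.2%, 55.6% and 63.2% in L-DOPA rats. The difference was -14.4 points (q = 3.11e-11). L-DOPA + R rats had 57.5%, 69.4% and 68.4%. In another stretch of chromosome 1, chr1:54419064 was lower in L-DOPA as well, by -8.07 points (q = 1.80e-08), with 87.8%, 87.7% and 86.4% in UNT rats and 78.1%, 78.4% and 81.1% in L-DOPA rats. The rats of both groups did not overlap at either CpG, and the F test left both above the threshold (q = 0.0209 and q = 0.0443).

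At chr13:8793506, the call came from 2 of 3 L-DOPA rats. UNT rats had 94.95%, 95.2% and 95.6%, and L-DOPA + R rats 94.6%, 97.0% and 97.5%. L-DOPA rats 1 and 3 had 45.6% and 46.1%, and L-DOPA rat 2 had 93.0%. Both striata carried this level, with 42.5% and 48.4% in rat 1 and 44.0% and 48.9% in rat 3. The other 6 high-depth CpGs of the stretch were at or above 93.6% in every striatum. The difference was -42.7 points against UNT (q = 6.08e-10, and 0.0288 with the F test) and L-DOPA + R was 43.9 points above L-DOPA (q = 0.000241). The second call was lost on leaving out any rat of either group except L-DOPA rat 2 (q between 0.0198 and 0.0900), with the F test (q = 0.912) and with the rat as the unit (q = 0.174).

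At chr20:46083801, a small difference was called. UNT rats had 95.1%, 93.3% and 94.9% and L-DOPA rats 91.9%, 92.0% and 91.9%, on 3961 to 6765 reads per rat, a difference of -2.60 points (q = 1.25e-07, and 0.0588 with the F test). L-DOPA + R rats had 95.05%, 94.8% and 94.0%, 2.71 points above L-DOPA (q = 7.47e-12, and 0.144 with the F test). The 2 strands of this CpG differed in depth between groups. With strand added to the model, the differences were 0.901 and -0.468 points and neither was called (q = 0.639 and q = 0.824).

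Between L-DOPA + R and UNT, the smallest p without a cytosine near the read end was at chr4:102985686. UNT rats had 70.2%, 72.1% and 63.7%, L-DOPA rats 58.1%, 54.8% and 37.0%, and L-DOPA + R rats 38.5%, 41.8% and 35.8%. The difference from UNT was -29.4 points (q = 6.09e-18, and q = 0.00619 with the F test), and it stayed between -32.0 and -27.9 points when any 1 rat was left out. Its neighbour chr4:102985667 was between 84.0% and 93.1% in all 18 striata. The change was thus seen at 1 of the 2 neighbouring CpGs.

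At chr5:53890540, methylation and depth moved together. L-DOPA + R rats had 95.9%, 96.4% and 85.2% and UNT rats 59.6%, 67.7% and 50%, a difference of 35.0 points (q = 2.52e-05, and q = 0.0139 without UNT rat 1 and 0.142 with the F test). The difference was 51.4 points in control striata only and 25.9 points, not called, in lesioned striata only (q = 0.339). Coverage was between 216 and 1668 reads in L-DOPA + R striata and between 66 and 211 in UNT striata. In every UNT and L-DOPA rat the striatum with more reads had the higher level. L-DOPA rat 3 had 909 reads and 88.2% in the control striatum and 142 reads and 48.6% in the lesioned one, and UNT rat 2 had 66 reads and 33.3% in the control and 188 reads and 79.8% in the lesioned striatum. The other 4 CpGs of the stretch were at or above 84.4% in every striatum. One of them, chr5:53890535, was 4.96 points higher in L-DOPA + R than in L-DOPA (q = 3.83e-05), a call that was lost without L-DOPA rat 1 (q = 0.0102) or L-DOPA + R rat 2 (q = 0.0172) and with the F test (q = 0.912). Against UNT, chr5:53890535 was 4.34 points higher in L-DOPA + R (q = 4.89e-05), while chr5:53890510 was lower in both drug groups, by -4.14 points in L-DOPA (q = 0.00940) and -3.70 points in L-DOPA + R (q = 0.00729). The part of depth in these differences was not tested.

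The other 2 named DMS of L-DOPA + R against UNT were lower. At chr20:40883507, UNT rats had 50.3%, 44.4% and 47.3% and L-DOPA + R rats 35.2%, 35.8% and 40.03%, a difference of -10.8 points (q = 1.06e-06). At chr13:89446846, UNT rats had 49.8%, 50.9% and 42.8% and L-DOPA + R rats 28.7%, 36.4% and 33.4%, a difference of -14.7 points (q = 3.89e-05). L-DOPA rats had 37.8%, 36.3% and 41.5% at the first and 38.8%, 34.1% and 38.5% at the second CpG, below every UNT rat at both. With the F test, q was 0.0811 and 0.154.

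The 2 smallest p-values with UNT belonged to CpGs with a cytosine near the read end. At chr2:193572261, 50 bases after a called cytosine, UNT rats were between 92.9% and 94.8%, L-DOPA rats between 47.8% and 51.7%, and L-DOPA + R rats between 42.7% and 47.4%, with differences of -43.5 points (q = 4.44e-128) and -49.5 points (q = 1.07e-143). With that cytosine left out, the other strand gave 1.20 and 0.317 points. At chr3:92145502, 47 bases past a cytosine, the differences of 20.9 and 20.1 points became 0.384 and 0.480 points. These signals were thus on the strand whose cytosine lies near the end of the read. The third smallest p with UNT, outside the rule for named CpGs, was at chr17:57866142, with a cytosine at 50 bases as well (-30.9 points, q = 6.16e-37, in L-DOPA and -22.7 points, q = 4.62e-30, in L-DOPA + R).

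**Figure D4:**
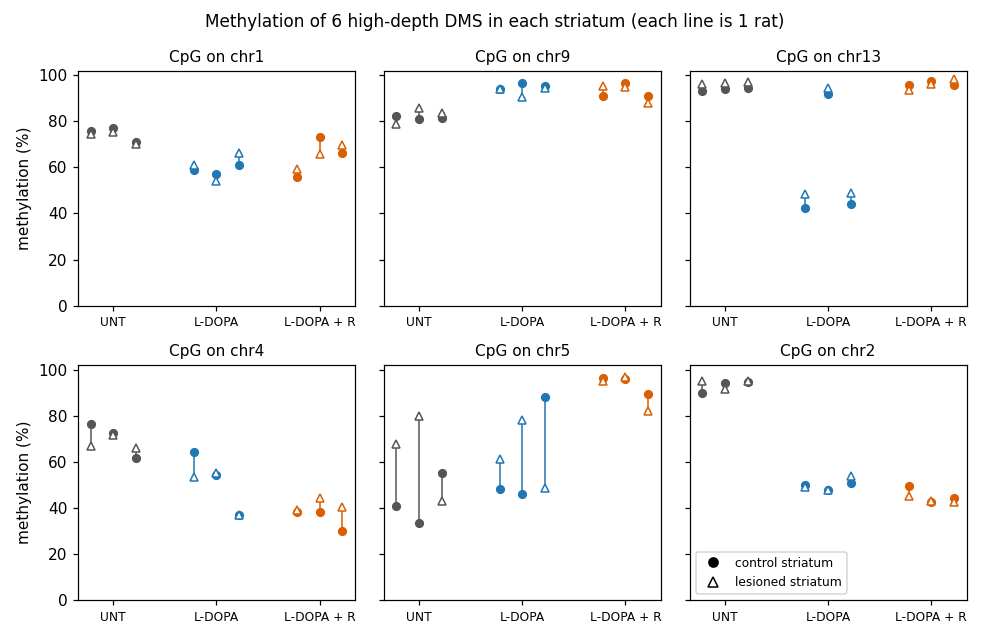
Methylation (%) of 6 high-depth DMS in each of the 18 striata, with a vertical line joining the control (circle) and the lesioned striatum (triangle) of a rat. The CpGs are chr1:54442099, chr9:11729896, chr13:8793506, chr4:102985686, chr5:53890540 and chr2:193572261, the last of which has a cytosine 50 bases past another; on chr13 only L-DOPA rats 1 and 3 lie near 45%.

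The lesioned and the control striata were compared within each treatment. None of the 608 CpGs was called in UNT (0.00193% of all CpGs tested were) or in L-DOPA + R (0.00176%), with 32 and 38 CpGs at an unadjusted p under 0.05 (6.45% and 6.29% of all). With the F test 0 were called in any treatment, with 6, 9 and 5 under 0.05 in UNT, L-DOPA and L-DOPA + R (0.987%, 1.48% and 0.822%, where 1.11%, 0.763% and 1.04% of all CpGs were). In L-DOPA, where 41 CpGs had such a p (5.4% of all), 1 CpG was called (0.00101%), chr6:133776580. The control striata of the L-DOPA rats had 92.1%, 95.8% and 92.2% and the lesioned striata 85.1%, 80.9% and 79.7%, a difference of -11.1 points (q = 0.00688). With the rat as a block q was 0.0259, and without L-DOPA rat 2 or rat 3 it was 0.113 and 0.441. A block also brought in 1 CpG that was not called without it, chr6:133791734 (-9.75 points, q = 0.00660 with and 0.0125 without the block), 15154 bases from the first. With the block, 0.00581% of all CpGs were called in L-DOPA. No high-depth CpG was called for a difference between treatments in the effect of the side (interaction, smallest q of 0.290, with 23, 34 and 30 of the 608 at an unadjusted p under 0.05 in the 3 pairs of treatments, 3.78%, 5.59% and 4.93%, where 6.05%, 6.44% and 6.12% of all CpGs were).

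Both CpGs were lower on the lesioned side in all 9 rats. At chr6:133776580, lesioned minus control was between -4.97 and -3.26 points in UNT rats, between -14.9 and -7.05 in L-DOPA rats and between -8.44 and -1.83 in L-DOPA + R rats. At chr6:133791734, it was between -8.46 and -2.18, between -13.2 and -6.78, and between -12.2 and -6.30 points. These were the 2 CpGs of the 608 (0.329%) that were lower on the lesioned side in every rat, and 1 of the 608 was higher in every rat. Over all 294959 CpGs, 0.110% were lower and 0.111% higher in every rat.

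After these values were seen, the sides were also compared over all 9 rats with the rat as a block. This called 23 CpGs of all (0.0078%), and these 2 were the only high-depth CpGs among them. At chr6:133776580, the control striata had 92.9% ± 1.69 and the lesioned striata 86.3% ± 3.93 (SD over rats), with a mean difference of -6.66 ± 4.56 points (q = 0.000588). At chr6:133791734, they had 93.4% ± 2.03 and 85.3% ± 2.77, with -8.10 ± 3.62 points (q = 6.59e-05). The second was called with any rat left out (largest q of 0.00381), while the first was lost without UNT rat 2, L-DOPA rat 1, L-DOPA rat 3 or L-DOPA + R rat 2 (largest q of 0.0174). With the F test no CpG of the table was called (q = 0.941 for both), and 26 high-depth CpGs (4.28%, where 3.73% of all did) had an unadjusted p under 0.05, these 2 with 0.000492 and 0.000281. After thinning to 40 reads neither was called. The comparison was chosen on the same data and is not independent of the values above.

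This region of chromosome 6 held 6 high-depth CpGs in 3 stretches, each a pair of CpGs with a higher first and a lower second level. The first CpGs had 92.9%, 91.9% and 93.4% in the control striata, and the second CpGs 83.0%, 71.1% and 78.1%. The other 4 were not called, with lesioned minus control of -5.25 ± 4.33, -2.21 ± 1.83, -4.18 ± 3.76 and -3.14 ± 5.58 points (lower in 8, 7, 8 and 5 of the 9 rats, q between 0.202 and 0.748). None of the 6 had a cytosine 46 to 50 bases past another. The means of all 6 lay below the control side, and 2 passed the test.

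**Figure D5:**
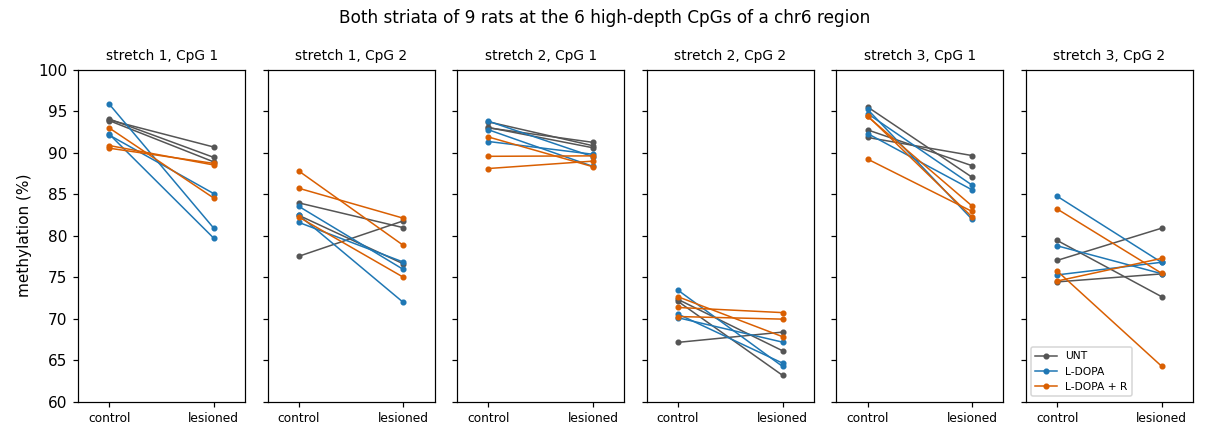
Methylation (%, axis from 60 to 100) on both sides of the 9 rats at the 6 high-depth CpGs of this region of chromosome 6, with a line for each rat coloured by treatment. All 9 lines fall at the first CpG of stretch 1 (chr6:133776580) and of stretch 3 (chr6:133791734).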

How the data were processed

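Both striata of 9 rats were profiled by RRBS. Per the labels and the methods of the study, the authors trimmed the 50-base single-end reads (Trim Galore 0.4.0, RRBS setting) and mapped them to rn6 with Bismark. For each striatum they deposited the coverage of each CpG cytosine as a count of reads, from 1 read on and without normalization, and the percent of methylated and of unmethylated reads. Methylated counts were rebuilt from coverage and percent and rounded.

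Scripts ran in Python 3.11.15 (scipy 1.17.1, numpy 2.4.6, pandas 2.3.3, matplotlib 3.10.9). Cytosines under 10 reads were dropped and reads of both strands summed. The test of methylKit was written anew as a logistic model with overdispersion from the Pearson residuals (at least 1), a chi-square test and Benjamini-Hochberg adjustment over all CpGs of the table, with DMS at q under 0.01. Treatments were compared over both sides, at CpGs present in at least 4 of 6 striata per group, and sides at CpGs present in all 6. The method was tested on simulated data. Differences are first group minus second, from summed reads, and values per rat are from the summed reads of its striata. Both striata of a rat enter the comparison of treatments as separate samples although they share an animal. With the rat as the unit, q was larger at some named CpGs and smaller at others.

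The members, lists and tests were chosen with earlier results of these data known. Named CpGs were the 8 deepest stretches, the 5 with the most CpGs, up to 5 DMS per comparison of treatments whose rats do not overlap (and 2 with a cytosine 46 to 50 bases past another), every DMS between sides, the 3 stretches whose deepest CpG had the widest range over rats and the 4 CpGs at the limit. A "called" neighbouring cytosine had at least 10 reads in at least 1 striatum. The same replicate number on both sides of a treatment was taken as the same rat. This was inferred from the labels and the unilateral lesion, and the labels do not say it outright. The deviations of such pairs correlated with r between 0.396 and 0.739, the values given in the Results, which rest on this pairing. Alternatives were other coverage limits, thinning to 40 reads, an F test, no overdispersion, the strand as a term, the replicate block, single sides, the rat as the unit and leaving out each rat. Spike-in DNA was used for conversion only.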

Additional observations from a re-analysis of the deposited data

Results flagged for a closer look

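Within the 6 striata of a treatment, each named CpG was examined for a single striatum far from the others, in 81 groups of 27 CpGs. In 1 group a striatum stood apart. At chr4:77448266, the lesioned striatum of L-DOPA rat 3 had 0% methylation, the nearest striatum had 0.224%, and this gap was 0.640 of the range of the group. Chance alone marks about 1 in 20 groups. Unmethylated spike-in DNA read as C at up to 0.928% in these libraries.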

How the results depend on the processing

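The set and its levels moved with the rule. A median coverage of at least 100 gave 3477 CpGs, one of at least 300 gave 201, and an upper coverage limit per striatum, as methylKit offers, left 44 (524 to 707 without 1 rat). The share between 20 and 80% was 19.1% without CpGs that have a cytosine 46 to 50 bases past another, where the median methylation was 36.6%, and 21.25% with 1 CpG per stretch (18.1% to 18.9% without 1 rat). The mean r of the striata of a rat was 0.455 with 1 CpG per stretch, 0.311 after thinning and 0.412 without the chromosome 14 region (0.548 to 0.634 without 1 rat), and the last of these was chosen after seeing the data.

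For L-DOPA against UNT, 11 DMS were left without the 46 to 50 base cytosines (0.0776% of all CpGs, from 0.351%), 5 after thinning (0.315%), 4 with the F test (0.0622%), 8 at a difference of at least 10 points (0.339%), 1 of the 151 tested under the coverage limit (0.348%), 10 with the rat as the unit (0.342%), and 8 in control (0.255%) and 10 in lesioned striata only (0.237%). With 1 CpG per stretch, 8 of 240 were left (0.351% of all). There were 65 without overdispersion (0.744%; 45 lower and 20 higher) and 9 to 26 without 1 rat (0.306% to 0.402%). For L-DOPA + R against UNT, 15 were left without cytosines 50 bases past another (0.227%), 12 without those at 46 to 50 (0.132% of all, from 0.445%), 6 after thinning (0.387%), 4 with the F test (0.0578%), 12 at 10 points (0.431%), 0 of 162 under the limit (0.438%), and 10 and 7 in control and lesioned striata only (0.306% and 0.287%). With 1 CpG per stretch, 10 of 240 were left (0.445% of all). There were 76 without overdispersion (1.22%) and 12 to 24 without 1 rat (0.374% to 0.589%). For L-DOPA + R against L-DOPA, 2 were called after thinning (0.0399%), which shared 0 with the 3 called with all reads. With the F test 0 were left (0.000352%), 1 at 10 points (0.0450%), 0 of 157 under the limit (0.0437%) and 1 in control striata only (0.0264%), with 36 without overdispersion (0.285%; 22 lower and 14 higher) and 1 to 5 without 1 rat (0.0405% to 0.0941%). Fewer reads, CpGs or striata were tested under thinning, the limit and single sides. Without the 46 to 50 base cytosines, q also changed at CpGs that had none, since it is adjusted over all CpGs tested. Otherwise the cause was not tested.

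Replicate numbers of different treatments name different rats. With the replicate number as a block, 29, 30 and 3 DMS were called in the comparisons of treatments (0.420%, 0.511% and 0.0931% of all). Between sides, 0, 1 and 0 were called in UNT, L-DOPA and L-DOPA + R (0.00400%, 0.00581% and 0.00805% of all). Without overdispersion, UNT had 1 between sides (0.00897% of all) and L-DOPA had 3 (0.0129%). L-DOPA had 0 without cytosines at 50 or at 46 to 50 bases and with the F test (0% of all in each). It also had 0 after thinning (0.000253%) and under the limit (0.000507%), and 0 to 1 without 1 rat (0.00139% to 0.00330%). Its call, chr6:133776580, has no such cytosine and stayed at -11.1 points without the cytosines at 46 to 50 bases, where q was 0.0187. Over all 9 rats, in settings chosen after seeing the data, 0 were called with the F test (0% of all) and 0 after thinning (0.00373%). Without 1 rat, 1 to 2 were called (0.00235% to 0.0095%).

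Of the named DMS, chr2:193572261 turned to 1.20 points in L-DOPA and 0.317 points in L-DOPA + R, both without its cytosine at 50 bases and with strand as a term, and chr20:46083801 turned to 0.901 points against UNT and -0.468 points between the drug groups with strand as a term. Without its cytosine at 47 bases, chr3:92145502 kept its direction and was no longer called, but with strand as a term it stayed at 20.6 points in L-DOPA and 19.3 points in L-DOPA + R and was called in both. The 3 named DMS between L-DOPA + R and L-DOPA each lost their call after thinning.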
